A study of Homo sapiens with 24 samples.

Results

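The genes described here are 43 parts of the machinery that prepares, starts and carries out the copying of chromosomal DNA. They were taken by name and not by any measured value. The list holds the 6 subunits of the MCM helicase (MCM2 to MCM7), the 6 of the origin recognition complex (ORC1 to ORC6), and the licensing factors CDC6 and CDT1 with the inhibitor GMNN. It also holds the helicase partners CDC45, GINS1 to GINS4 and MCM10, and polymerase alpha and primase (POLA1, POLA2, PRIM1, PRIM2). The subunits POLE, POLE2, POLD1, POLD2 and POLD3 of polymerases epsilon and delta follow, with the sliding clamp PCNA and its loader RFC1 to RFC5. The single-strand binding protein RPA1 to RPA3, the lagging-strand enzymes FEN1 and LIG1, and the chromatin assembly subunits CHAF1A and CHAF1B complete it. All 43 were found among 28907 gene symbols, and each stood at 1 TPM (transcripts in each 1000000) or more in all 24 libraries. A gene's level is the sum of the TPM of its transcripts; TPM is already per transcript length, so levels can be set side by side between genes.

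The study measured RNA in 2 established lines labelled as ovarian cancer cells, A2780 and ES2, both carrying the label WT. Cells of each line had luteolin, a plant flavonoid, or its control DMSO, a solvent; other cells had a small interfering RNA against the kinase VRK1 (siVRK1) or a control one (siCtrl). Each of the 8 groups has 3 libraries. Neither the doses, the times nor the number of separate cultures are in the labels, so a p-value here reflects no more than how far the libraries of a group spread, which may be technical.

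Before S phase, the origin recognition complex, CDC6 and CDT1 load MCM rings onto origins as inactive pairs, and geminin, the product of GMNN, binds CDT1 and blocks further loading until the next cycle. At the start of S phase CDC45 and GINS join the MCM ring to form the active helicase, polymerase alpha with primase lays down primers, and polymerases epsilon and delta extend them on the clamp PCNA. Many of these genes are known targets of the E2F transcription factors, which RB family proteins hold in check, and their RNA is known to be highest around the transition from G1 to S phase.

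Promoters of 5 members are shown because E2F binding sites are where textbook regulation of the group takes place. MCM6, GINS2, POLA2 and CDC6 carry changes described below, whereas ORC2 was called in none of the 4 treatment comparisons as deposited. The sequences are RefSeq's on GRCh38.p14, read from 250 bases before to 50 bases after the annotated start, 5′ to 3′ on the gene's strand. Capitals mark TTNNCGC on either strand, with C or G at each N, which spells 4 forms of the E2F word; words may overlap one another.
MCM6, chr2:135876394-135876693, minus strand: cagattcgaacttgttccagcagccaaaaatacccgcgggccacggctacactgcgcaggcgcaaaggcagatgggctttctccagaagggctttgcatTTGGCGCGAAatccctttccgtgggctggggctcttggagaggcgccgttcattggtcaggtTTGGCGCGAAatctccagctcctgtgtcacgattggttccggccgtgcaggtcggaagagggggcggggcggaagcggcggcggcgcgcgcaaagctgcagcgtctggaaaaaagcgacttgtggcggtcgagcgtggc
GINS2, chr16:85688905-85689204, minus strand: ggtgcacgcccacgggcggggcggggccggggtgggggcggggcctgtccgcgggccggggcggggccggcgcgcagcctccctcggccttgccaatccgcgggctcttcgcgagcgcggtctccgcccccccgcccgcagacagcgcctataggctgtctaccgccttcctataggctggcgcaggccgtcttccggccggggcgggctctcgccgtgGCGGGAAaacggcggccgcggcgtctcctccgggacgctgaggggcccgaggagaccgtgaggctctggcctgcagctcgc
POLA2, chr11:65261712-65262011, plus strand: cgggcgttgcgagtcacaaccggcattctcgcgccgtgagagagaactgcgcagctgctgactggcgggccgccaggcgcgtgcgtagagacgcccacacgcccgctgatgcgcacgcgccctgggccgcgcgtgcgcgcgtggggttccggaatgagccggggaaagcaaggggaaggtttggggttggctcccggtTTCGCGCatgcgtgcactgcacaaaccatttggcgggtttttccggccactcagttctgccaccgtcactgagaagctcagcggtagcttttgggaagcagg
CDC6, chr17:40287629-40287928, plus strand: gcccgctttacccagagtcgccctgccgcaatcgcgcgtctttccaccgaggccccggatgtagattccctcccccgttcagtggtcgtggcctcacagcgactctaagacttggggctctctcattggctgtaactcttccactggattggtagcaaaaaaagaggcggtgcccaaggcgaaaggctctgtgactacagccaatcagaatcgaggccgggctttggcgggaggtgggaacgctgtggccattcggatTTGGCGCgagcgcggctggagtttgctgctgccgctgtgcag
ORC2, chr2:200963611-200963910, minus strand: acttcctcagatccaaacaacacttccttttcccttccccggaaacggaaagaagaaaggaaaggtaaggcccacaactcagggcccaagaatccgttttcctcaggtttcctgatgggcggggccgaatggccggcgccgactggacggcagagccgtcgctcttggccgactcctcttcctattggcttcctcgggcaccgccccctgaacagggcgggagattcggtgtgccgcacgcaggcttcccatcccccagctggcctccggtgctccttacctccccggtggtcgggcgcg

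MCM6 holds 4 such words, GINS2, POLA2 and CDC6 hold 1 each, and the window of ORC2 holds none. Of the 43 members, 37 matched a promoter in the table, and 27 of these (73.0%) held an E2F word in at least 1 window, against 15.3% of all 27305 genes with a window and 24.7% of the 10835 with a window that were also tested. The 10 without one were CDC45, FEN1, MCM10, ORC2, ORC4, ORC5, ORC6, POLD1, POLD2 and PRIM2. Most of these changed in at least 1 comparison, and calls of members with and without a word are counted further below. The word CCAAT, on either strand, was present in 22 of the 37 (59.5%) against 39.7% of all genes. TTTGAA or TTCGAA, the core of the element that marks many mitotic promoters, was present in 1 of the 37, MCM6 (2.70%), against 19.5%. A match describes letters in these windows and is not evidence that a factor binds there.

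The target of the siRNA was low where the labels place it. VRK1 was 54.4 ± 0.788 TPM (SD, n = 3, as for all means below) with siCtrl and 9.57 ± 1.68 with siVRK1 in A2780, and 64.6 ± 2.17 and 3.73 ± 0.703 in ES2. With luteolin it was 39.9 ± 3.92 against 54.2 ± 5.04 with DMSO in A2780, and 61.5 ± 7.18 against 60.3 ± 3.20 in ES2. Libraries held 11792 to 12862 genes at 1 TPM or more. With luteolin the mean number went from 11911 to 12806 in A2780 and from 11915 to 12138 in ES2. The mean share of mitochondrial messenger RNA went from 7.10% to 10.5% and from 4.57% to 7.78% with luteolin, and from 7.19% to 8.04% and from 5.39% to 5.24% with siVRK1. Of 8 markers of ovarian carcinoma cells, 3 reached 1 TPM in A2780 (EPCAM, KRT8, KRT18; summed level 5.44 to 12.1 TPM over libraries), and PAX8, WT1 and MUC16 did not. In ES2 5 of 8 did (PAX8, WT1, KRT7, KRT8, KRT18), and their summed mean went from 973 to 653 TPM with siVRK1 and from 976 to 735 TPM with luteolin.

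Markers of other cell types also moved with treatment. In ES2 the 5 leukocyte markers, of which CD68 and LYZ reached 1 TPM and PTPRC and CD3E did not, went from 38.3 to 76.0 TPM with siVRK1 and from 61.7 to 62.3 TPM with luteolin. The 6 fibroblast markers went from 88.8 to 57.9 TPM with siVRK1 and from 121 to 18.8 TPM with luteolin there, and the 4 endothelial markers from 31.7 to 32.1 TPM and from 38.4 to 10.2 TPM. In A2780 fibroblast markers went from 37.8 to 47.1 TPM and from 61.0 to 43.5 TPM, and leukocyte markers lay at 1.996 to 6.93 TPM and endothelial ones at 0.120 to 1.58 TPM over libraries. Of 3 erythroid markers, HBA1 reached 1 TPM in A2780 (sum 0.702 to 4.95 TPM) and none did in ES2. The part of these signs in the members' changes was not tested.

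In control cells the group was well expressed in both lines. The median member stood at 58.3 TPM with siCtrl and 49.7 TPM with DMSO in A2780, and at 38.8 and 44.3 TPM in ES2. PCNA was the most abundant member in every group (means of 203 to 385 TPM), and POLA1 or CHAF1B the least abundant (7.90 to 15.6 TPM). The summed level of the 43 genes was 3481 ± 59.98 TPM with siCtrl and 2511 ± 137 TPM with siVRK1 in A2780, whereas in ES2 it was 2393 ± 24.5 and 2816 ± 11.4 TPM. With DMSO and luteolin it was 3090 ± 115 and 2385 ± 133 TPM in A2780, and 2716 ± 63.9 and 2516 ± 180 TPM in ES2. The 2 siVRK1 ranges lay on opposite sides of their siCtrl ranges, lower in A2780 and higher in ES2. RNA of whole cultures cannot tell apart fewer cells in S phase from less of each RNA per cell.

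Each comparison was fitted over all genes with limma on log2(TPM + 1), and a member is said to have risen or fallen where its Benjamini-Hochberg adjusted p over all genes tested was under 0.05. Differences are log2 fold changes on that scale with their standard errors. With siVRK1 in A2780, none of 43 members rose and 40 fell, where 13.8% of 13012 genes rose and 27% fell. In ES2 the same siRNA raised 22 and lowered 7, where 26.8% of 12507 genes rose and 28% fell. With luteolin 3 members rose and 30 fell in A2780 (45.6% and 19.9% of all genes), and 6 rose and 19 fell in ES2 (22.6% and 25.8%). The members' median was -0.46 and 0.25 with siVRK1 in A2780 and ES2, where that of all genes tested was -0.08 and 0.00. It was -0.54 and -0.15 with luteolin, where that of all genes was 0.22 and 0.00.

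The whole distribution of genes was shifted by luteolin in A2780, so its values are given below minus the median of all genes, 0.22. The adjusted p and SE beside a value relative to a median belong to the fitted difference before the median was taken off. Scaling the libraries by the median of gene ratios, which removes this shift, left 0 members higher and 39 lower. The 9 members that fell only with scaling were MCM4, ORC2, ORC5, GINS4, POLD1, RFC1, RFC4, RPA1 and LIG1, and ORC4, ORC6, POLE and PCNA had no call under it. It moved the share of higher among all called genes from 69.7% to 46.3%. For siVRK1 in A2780 the same scaling gave 0 higher and 38 lower (MCM3 and ORC4 lost their calls), and moved that share from 33.8% to 49.5%. In ES2 it gave 22 and 7 for siVRK1 and 6 and 20 for luteolin.

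**Figure D1:**
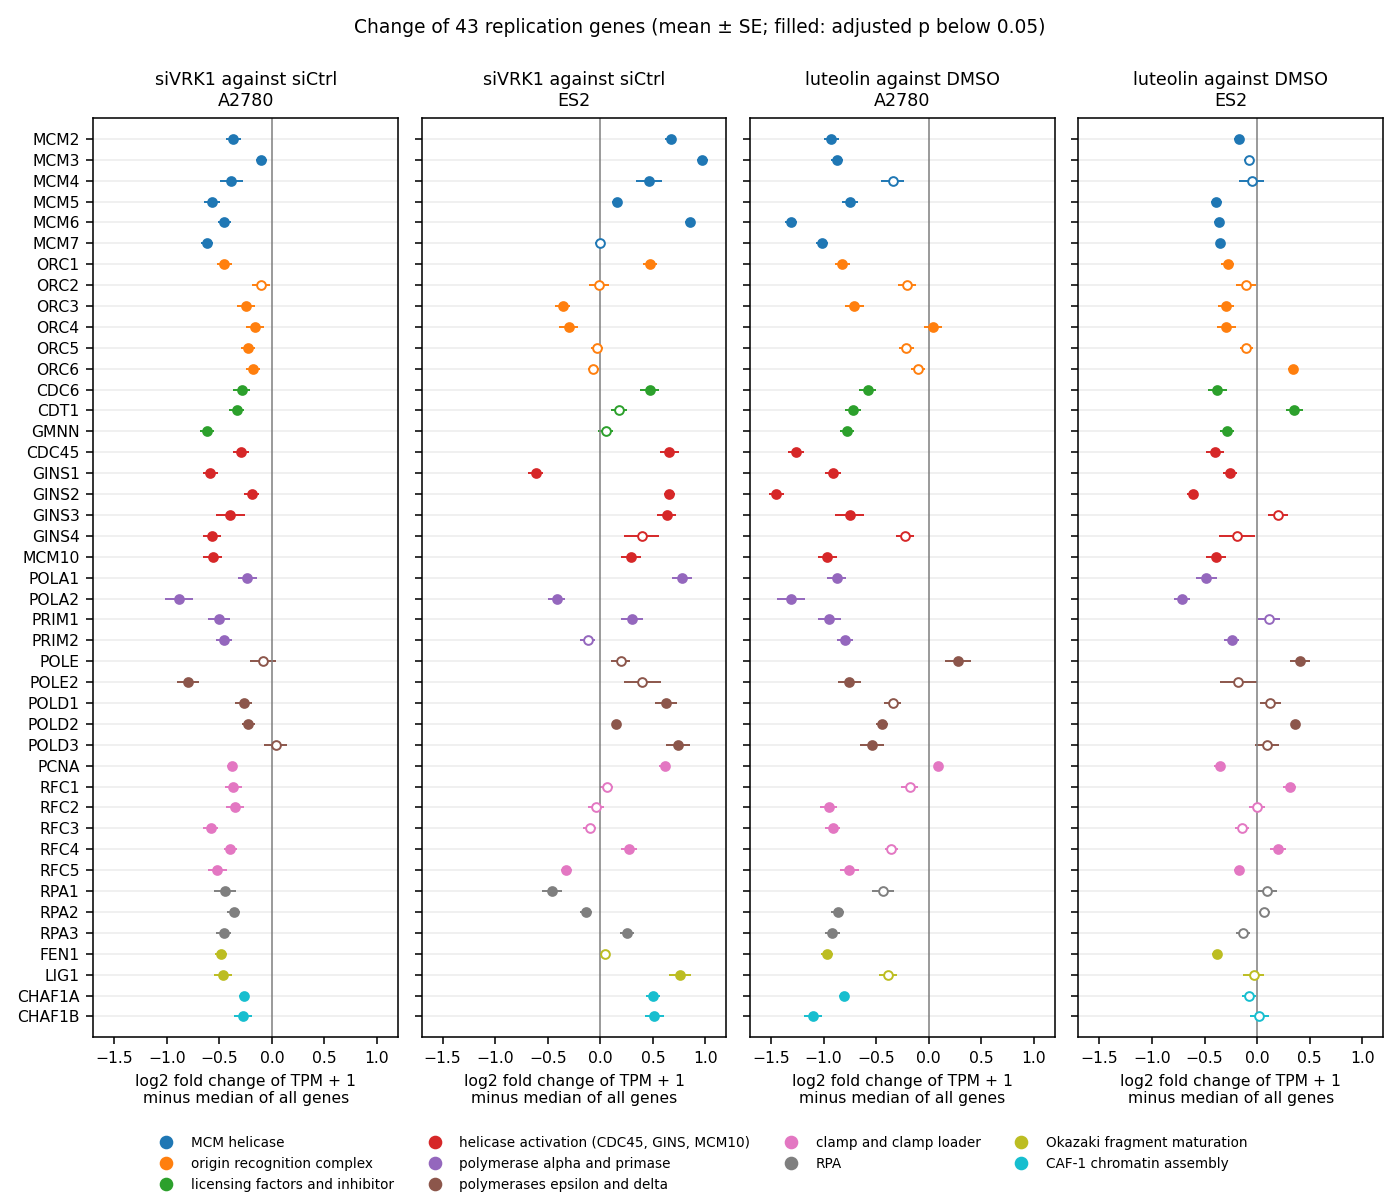
Log2 fold change of TPM + 1 minus the median of all genes (horizontal axis, mean ± SE from limma, 3 libraries a group) for the 43 members, one row a gene, coloured by role; filled points passed the adjusted p of 0.05 in the unscaled fit. With siVRK1 40 points fell in A2780 and 22 rose in ES2; with luteolin 30 fell in A2780 and 19 in ES2.

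The MCM helicase showed the contrast between the lines over its whole ring. All 6 subunits fell with siVRK1 in A2780, 5 of 6 rose in ES2, and the difference between the lines was higher in ES2 for 6 of 6. Over all genes those shares were 27%, 26.8% and 20.7%. MCM2, the subunit that also binds histones, read 126, 117 and 122 TPM with siCtrl and 91.0, 91.7 and 84.8 TPM with siVRK1 in A2780, and 74.2, 76.6 and 77.1 against 122, 121 and 120.1 TPM in ES2. Neither pair of groups overlapped, and the changes were -0.45 ± 0.07 and 0.67 ± 0.05 (limma adjusted p = 0.000332 and 2.86e-07). MCM6 read 85.8, 86.8 and 86.8 against 62.3, 59.4 and 57.1 TPM in A2780, and 27.8, 27.2 and 27.7 against 49.0, 50.5 and 51.8 TPM in ES2. That is -0.53 ± 0.06 in A2780 and 0.85 ± 0.04 in ES2, again with no overlap (limma adjusted p = 2.39e-05 and 8.43e-09). MCM3 had the largest rise of any member in ES2, from 79.4, 79.0 and 82.9 to 159, 158 and 158 TPM, a change of 0.97 ± 0.05 (limma adjusted p = 8.03e-09). In A2780 it fell by less than the other subunits, by 0.18 ± 0.05, from 137, 129.9 and 131 to 118, 118 and 115 TPM. That call was lost without siCtrl library 1 (limma adjusted p = 0.0723) or siVRK1 library 3 (0.0575), and under scaling (0.165). MCM7 was the subunit without a rise in ES2. It fell in A2780 from 302, 294 and 304 to 195, 185 and 176 TPM (-0.70 ± 0.06, limma adjusted p = 2.62e-06). In ES2 it read 201, 197 and 202 and 200.1, 201 and 196 TPM, groups that overlap, with a difference of -0.01 ± 0.04. MCM5 rose by 0.16 ± 0.05 in ES2, a call that did not hold without siCtrl library 3 (limma adjusted p = 0.0636) or siVRK1 library a (0.0617; a and b are 2 libraries whose columns share a name), and MCM4 rose by 0.46 ± 0.12.

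Luteolin lowered MCM genes in both lines. In A2780 5 of 6 fell and in ES2 4 of 6, where 19.9% and 25.8% of all genes fell, and none rose in either. MCM6 read 87.5, 82.1 and 94.5 TPM with DMSO and 41.0, 42.7 and 38.5 TPM with luteolin in A2780 (-1.31 relative to the median gene, SE 0.06, limma adjusted p = 1.30e-08). In ES2 it read 47.2, 45.6 and 45.6 and 36.3, 34.4 and 35.8 TPM (-0.37 ± 0.04, limma adjusted p = 2.04e-05). Both pairs were separate, and the fall was deeper in A2780, by 0.72 ± 0.07 on the log2 scale before and 0.92 after taking off the median of all genes (limma adjusted p = 5.92e-08). MCM2 followed with 120.5, 116 and 130.0 against 81.8, 75.7 and 66.4 TPM in A2780 (-0.93 relative to the median gene, limma adjusted p = 2.31e-06). In ES2 its libraries read 91.4, 92.8 and 96.5 against 82.3, 76.7 and 89.6 TPM, a change of -0.17 ± 0.05 that lost its call without DMSO library 3 (limma adjusted p = 0.0509). MCM4 was not called with luteolin in A2780 as deposited (-0.12 ± 0.11) and fell under scaling (-0.38, limma adjusted p = 0.002).

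ORC1, the largest subunit of the origin recognition complex and one of its ATPases, was the subunit that rose with siVRK1 in ES2. It read 21.8, 21.7 and 23.0 TPM with siCtrl and 15.7, 15.3 and 14.1 TPM with siVRK1 in A2780, and 13.0, 13.3 and 12.1 against 18.0, 18.6 and 17.5 TPM in ES2. The groups were separate in both lines, falling by 0.53 ± 0.07 in A2780 and rising by 0.47 ± 0.07 in ES2 (limma adjusted p = 9.90e-05 and 6.84e-05). With luteolin it went from 19.7, 19.3 and 20.7 to 12.9, 13.5 and 11.8 TPM in A2780 (-0.82 relative to the median gene) and from 16.7, 17.4 and 17.9 to 13.9, 13.2 and 15.1 TPM in ES2 (-0.28 ± 0.07). Both were falls with no overlap (limma adjusted p = 9.76e-06 and 0.00359). ORC2 was the only member called in none of the 4 treatment comparisons as deposited, with group means of 14.7 to 29.4 TPM; under scaling it fell with luteolin in A2780.

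Among the remaining ORC genes, ORC3 and ORC4 were called in all 4 treatment comparisons, and ORC5 and ORC6 in fewer. With siVRK1 in A2780 ORC3, ORC4, ORC5 and ORC6 fell, by 0.23 to 0.32, and in ES2 ORC3 and ORC4 fell. The ES2 falls of ORC3 turned direction on coding transcripts alone, to 0.07 with siVRK1 and 0.21 with luteolin (limma adjusted p = 0.371 and 0.0147). ORC4 read 35.5, 36.2 and 39.3 TPM with DMSO and 40.8, 44.8 and 47.7 TPM with luteolin in A2780. Those groups were separate, but the rise of 0.26 ± 0.09 (limma adjusted p = 0.0180) stood only 0.04 above the median gene and was lost under scaling (limma adjusted p = 0.99). It was also lost without DMSO library 1, DMSO library 2 or luteolin library 3 (adjusted p of 0.0619, 0.0514 and 0.0749). In ES2 ORC4 fell with luteolin, from 34.1, 32.6 and 33.1 to 24.3, 26.8 and 30.0 TPM (-0.29 ± 0.09), a call lost without luteolin library 1 (limma adjusted p = 0.0716). Its falls with siVRK1, -0.23 ± 0.09 in A2780 and -0.30 ± 0.09 in ES2, likewise depended on single libraries, and in A2780 the groups overlapped. Without siVRK1 library 3 in A2780 the adjusted p was 0.181, and without siCtrl library 3 in ES2 it was 0.0537. ORC6 rose with luteolin in ES2, from 77.5, 84.0 and 78.6 to 102, 95.8 and 106 TPM (0.34 ± 0.05, limma adjusted p = 0.000124), with all luteolin libraries above all DMSO libraries.

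The 2 loading factors and their inhibitor follow. CDC6, the ATPase that brings MCM to the origin, read 73.5, 69.6 and 70.5 and 60.6, 53.9 and 51.0 TPM in A2780 siCtrl and siVRK1, and 42.0, 39.6 and 39.1 and 57.0, 53.9 and 57.0 TPM in ES2. It fell by 0.37 ± 0.08 in A2780 and rose by 0.47 ± 0.09 in ES2, with no overlap in either line (limma adjusted p = 0.00377 and 0.000812). Luteolin lowered it in both, from 62.0, 60.05 and 68.0 to 49.8, 54.2 and 43.4 TPM in A2780 and from 49.8, 53.7 and 59.5 to 43.9, 35.1 and 46.0 TPM in ES2 (limma adjusted p = 0.00195 and 0.00402). The changes were -0.58 relative to the median gene in A2780 and -0.38 ± 0.09 in ES2.

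CDT1, the other loading factor, fell with siVRK1 in A2780 from 47.8, 45.6 and 45.7 to 36.7, 34.6 and 32.6 TPM (-0.41 ± 0.07, limma adjusted p = 0.000647). In ES2 it read 30.1, 30.7 and 32.1 and 35.5, 33.1 and 36.6 TPM; the groups did not overlap, yet the difference of 0.17 ± 0.08 was not called (limma adjusted p = 0.0787). It was called with quantile normalization (0.0263), coding transcripts only (0.0302), a replicate block (0.0313, or 0.0458 with libraries a and b in the other order) or the 2 groups alone (0.0268), so its side of the threshold depends on the setting. Luteolin split the lines on CDT1. In A2780 it went from 47.8, 48.7 and 45.9 to 36.2, 34.0 and 29.7 TPM (-0.72 relative to the median gene, limma adjusted p = 5.11e-05), and in ES2 from 39.0, 35.0 and 38.7 to 46.7, 43.7 and 55.0 TPM (0.35 ± 0.08, limma adjusted p = 0.00267). All luteolin libraries lay below DMSO in A2780 and above it in ES2, and the difference between the effects was 0.86 ± 0.11 (1.05 after taking off the median of all genes, limma adjusted p = 2.35e-06).

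GMNN, whose protein geminin restrains CDT1, fell with siVRK1 in A2780 from 98.1, 98.2 and 92.8 to 61.4, 58.1 and 58.0 TPM (-0.69 ± 0.07, limma adjusted p = 8.10e-06). In ES2 the groups overlapped at 101, 92.6 and 94.4 and 91.4, 99.4 and 108 TPM, a difference of 0.05 ± 0.07. With luteolin it went from 83.8, 70.8 and 84.1 to 55.1, 55.5 and 50.2 TPM in A2780 (-0.78 relative to the median gene) and from 69.5, 73.0 and 72.7 to 56.6, 54.9 and 64.4 TPM in ES2 (-0.29 ± 0.07). Both were falls (limma adjusted p = 1.34e-05 and 0.00381). In ES2 CDT1 and GMNN thus moved in opposite directions with luteolin. The ratio of CDT1 to GMNN there was 0.480 to 0.562 over DMSO libraries and 0.796 to 0.854 over luteolin libraries; its means were 0.601 and 0.620 in A2780. With siVRK1 the mean ratio was 0.585 against 0.481 in A2780 and 0.354 against 0.323 in ES2.

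**Figure D2:**
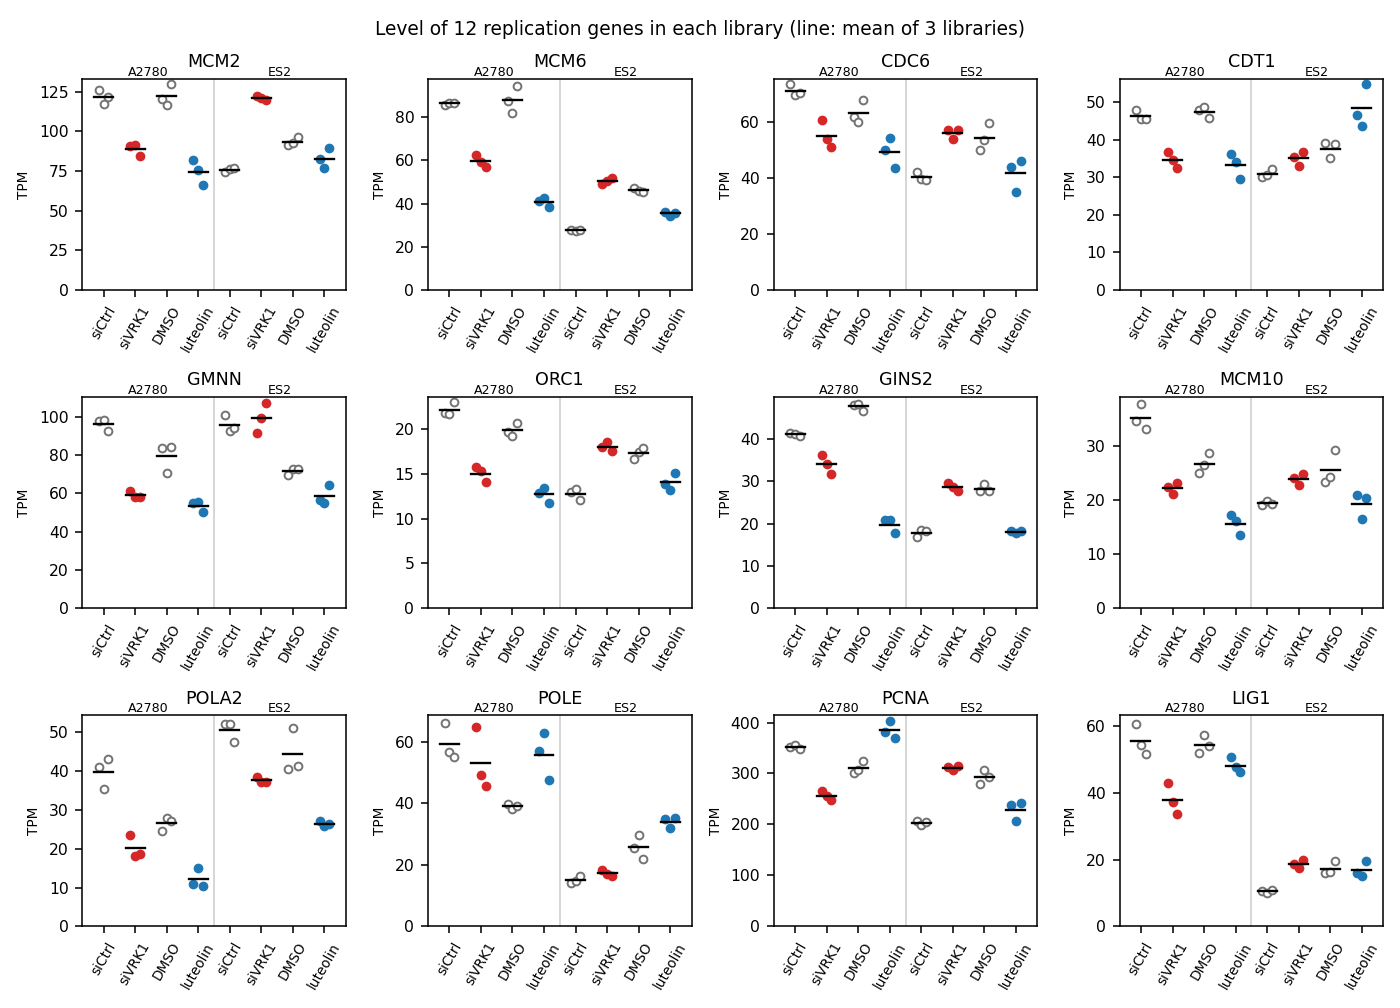
Level in TPM (vertical axis, from 0) of 12 members in each of the 24 libraries, grouped by line and treatment; open points are siCtrl or DMSO, filled points siVRK1 or luteolin, and lines the means of 3 libraries. CDT1 lay above DMSO with luteolin in ES2 and below it in A2780, and PCNA and POLE lay above it in A2780, rises that were not called under scaling.

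The genes that turn the loaded ring into a working helicase fell together in A2780: 6 of 6 with siVRK1 and 5 of 6 with luteolin. Of all genes 27% and 19.9% fell there. In ES2 4 rose and GINS1 fell with siVRK1 (26.8% and 28% of all genes), and 4 fell with luteolin (25.8%). GINS2 carried the deepest luteolin fall of the list in A2780. It read 48.0, 48.3 and 46.7 TPM with DMSO and 20.9, 20.8 and 17.6 TPM with luteolin in A2780, and 27.7, 29.3 and 27.6 and 18.2, 17.7 and 18.2 TPM in ES2. The groups were far apart in both lines, with -1.45 relative to the median gene in A2780 and -0.62 ± 0.06 in ES2 (limma adjusted p = 1.92e-08 and 2.37e-06). With siVRK1 GINS2 fell by 0.27 ± 0.07 in A2780, from 41.4, 41.2 and 40.8 to 36.3, 34.2 and 31.6 TPM, and rose by 0.66 ± 0.06 in ES2, from 16.8, 18.6 and 18.2 to 29.7, 28.8 and 27.6 TPM (limma adjusted p = 0.00907 and 8.37e-07).

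GINS1, a subunit of the same 4-part ring, did not follow GINS2 in ES2. It fell with siVRK1 from 33.0, 35.1 and 38.9 to 22.2, 24.4 and 21.9 TPM (-0.62 ± 0.07, limma adjusted p = 9.17e-06), the deepest siVRK1 fall of a member in that line. In A2780 it fell by about as much, from 42.3, 44.5 and 41.1 to 28.0, 27.2 and 24.6 TPM (-0.66 ± 0.07). The difference between the lines was 0.04 ± 0.10 (limma adjusted p = 0.774), against 0.92 ± 0.09 for GINS2 (limma adjusted p = 5.87e-08). CDC45, the cofactor that joins GINS on the MCM ring, read 61.0, 58.4 and 59.9 TPM with DMSO and 27.9, 27.3 and 30.0 TPM with luteolin in A2780, a change of -1.26 relative to the median gene (limma adjusted p = 1.45e-07). In ES2 it went from 30.8, 29.3 and 32.4 to 49.6, 50.2 and 47.5 TPM with siVRK1 (0.66 ± 0.09, limma adjusted p = 4.55e-05), and all 3 siVRK1 libraries lay above all siCtrl libraries.

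MCM10, which helps the helicase begin to unwind, fell with siVRK1 in A2780 from 34.7, 37.8 and 33.1 to 22.5, 21.1 and 23.1 TPM (-0.64 ± 0.09, limma adjusted p = 0.000120). In ES2 it went from 19.2, 19.8 and 19.3 to 24.2, 22.8 and 24.9 TPM, a rise of 0.29 ± 0.10 (limma adjusted p = 0.0220) with no overlap that lost its call without siVRK1 library 3 (limma adjusted p = 0.0695), siCtrl library 1 (0.0571), siCtrl library 3 (0.0532) or siVRK1 library a (0.0546). With luteolin it fell from 25.05, 26.6 and 28.6 to 17.2, 16.0 and 13.5 TPM in A2780 and from 23.3, 24.2 and 29.3 to 20.8, 16.5 and 20.3 TPM in ES2 (limma adjusted p = 1.03e-05 and 0.00445). GINS3 rose in ES2 with siVRK1 by 0.63 ± 0.09 and fell in A2780 by 0.48 ± 0.14, the latter a call lost without siCtrl library 3 (limma adjusted p = 0.0559) or siVRK1 library 3 (0.0551). GINS4 fell with siVRK1 in A2780, from 48.5, 57.7 and 45.4 to 33.2, 33.1 and 29.1 TPM (-0.65 ± 0.09), and with luteolin read 32.1, 31.1 and 33.4 against 30.5, 31.2 and 34.6 TPM, groups that overlap.

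Polymerase alpha and primase split into subunits that changed direction between the lines and subunits that did not. POLA2, the regulatory B subunit, fell in all 4 treatment comparisons, as did GINS1, RFC5 and, over all its transcripts but not over coding ones in ES2, ORC3. With siVRK1 it went from 41.0, 35.4 and 43.2 to 23.5, 18.0 and 18.6 TPM in A2780 and from 52.2, 52.2 and 47.6 to 38.5, 37.1 and 37.3 TPM in ES2. With luteolin it went from 24.6, 27.9 and 27.2 to 10.9, 14.95 and 10.4 TPM in A2780 and from 40.4, 51.2 and 41.3 to 27.1, 25.8 and 26.3 TPM in ES2. In each of the 4 comparisons every treated library lay below every control library. The siVRK1 changes were -0.96 ± 0.13 and -0.42 ± 0.08 (limma adjusted p = 0.000111 and 0.000576), and the luteolin changes -1.31 relative to the median gene and -0.72 ± 0.08 (limma adjusted p = 1.20e-05 and 1.04e-05).

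POLA1, the catalytic subunit of the same enzyme, rose with siVRK1 in ES2 from 7.90, 8.73 and 7.61 to 13.9, 14.998 and 14.7 TPM (0.78 ± 0.10, limma adjusted p = 2.99e-05). In A2780 it fell by 0.31 ± 0.09, from 15.2, 15.5 and 16.2 to 13.1, 12.4 and 11.7 TPM, a call lost without siCtrl library 3 (limma adjusted p = 0.0539) or siVRK1 library 3 (0.0554). Luteolin lowered it in both lines, from 13.5, 12.3 and 14.5 to 8.33, 8.93 and 7.22 TPM in A2780 and from 11.7, 12.7 and 12.8 to 8.84, 7.16 and 9.89 TPM in ES2 (limma adjusted p = 3.28e-05 and 0.00149). PRIM1, the catalytic primase subunit, fell with luteolin in A2780 from 37.6, 33.5 and 38.1 to 21.8, 25.5 and 18.0 TPM (-0.94 relative to the median gene, limma adjusted p = 6.73e-05). In ES2 it read 33.3, 36.2 and 36.5 and 39.0, 31.9 and 44.9 TPM, overlapping groups with a difference of 0.11 ± 0.10. Its rise with siVRK1 in ES2 (0.30 ± 0.10) did not hold without siVRK1 library 3 (limma adjusted p = 0.102), siCtrl library 1 (0.0762) or siCtrl library 3 (0.0692). PRIM2, the other primase subunit, fell with siVRK1 in A2780 by 0.54 ± 0.08 and was not called in ES2 (-0.12 ± 0.07, limma adjusted p = 0.176).

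Among the subunits of polymerases epsilon and delta, calls went both ways with luteolin in A2780 as deposited (under scaling POLE had none). With siVRK1 3 of 5 fell in A2780 and 3 rose in ES2, where 27% and 26.8% of all genes did. With luteolin 1 rose and 3 fell in A2780 (45.6% and 19.9% of all genes), and 2 rose in ES2 (22.6%). POLE2, the second subunit of the leading-strand polymerase, fell with siVRK1 in A2780 from 43.2, 35.8 and 41.8 to 25.3, 20.3 and 18.9 TPM (-0.88 ± 0.11, limma adjusted p = 3.97e-05). In ES2 it read 13.6, 16.9 and 13.6 TPM with siCtrl and 24.8, 14.0 and 21.5 TPM with siVRK1, overlapping groups whose difference of 0.40 ± 0.18 was not called (limma adjusted p = 0.0772). POLE, the catalytic subunit, was the member that rose with luteolin in both lines as deposited. It read 39.9, 38.3 and 39.2 TPM with DMSO and 57.0, 62.9 and 47.6 TPM with luteolin in A2780, and 25.4, 29.6 and 22.0 and 35.0, 32.1 and 35.2 TPM in ES2. Both pairs were separate, with 0.28 relative to the median gene in A2780 (limma adjusted p = 0.00367, and 0.072 under scaling) and 0.41 ± 0.09 in ES2 (limma adjusted p = 0.00353).

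POLD2, an accessory subunit of polymerase delta, rose with luteolin in ES2 from 170.0, 167 and 172 to 213, 214 and 226 TPM (0.36 ± 0.03, limma adjusted p = 2.96e-06) and fell in A2780 from 167, 161 and 152 to 140.5, 134 and 135 TPM (-0.44 relative to the median gene, limma adjusted p = 0.00449). The groups were separate in both lines. POLD1, the catalytic subunit, rose with siVRK1 in ES2 from 27.0, 23.7 and 22.9 to 42.2, 37.9 and 34.8 TPM (0.62 ± 0.10, limma adjusted p = 0.000251) and fell in A2780 by 0.34 ± 0.08. POLD3 rose in ES2 by 0.74 ± 0.11, but its 3 siVRK1 libraries (23.2, 21.3 and 23.3 TPM) lay within the range of the DMSO libraries of that line (20.6, 25.6 and 21.9 TPM). Its fall with luteolin in A2780 (-0.54 relative to the median gene, from overlapping groups) lost its call without DMSO library 1 (limma adjusted p = 0.0504), DMSO library 3 (0.083) or luteolin library 3 (0.0966).

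PCNA, the sliding clamp, went against most of the list with luteolin in A2780. It read 301, 307 and 325 TPM with DMSO and 382, 404 and 369.9 TPM with luteolin, and every luteolin library was higher. The rise of 0.31 ± 0.04 as deposited (limma adjusted p = 4.70e-05) came to 0.09 above the median gene and was not called under scaling (limma adjusted p = 0.32). In ES2 PCNA fell with luteolin, from 279.9, 307 and 293 to 237, 207 and 241 TPM (-0.36 ± 0.05, limma adjusted p = 0.000133), again with no overlap. With siVRK1 it fell in A2780 from 352, 356 and 348 to 265, 256 and 249 TPM (-0.46 ± 0.04) and rose in ES2 from 206, 198 and 204 to 312, 306 and 314 TPM (0.61 ± 0.05), and the groups of both lines were separate (limma adjusted p = 6.29e-06 and 9.61e-07).

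The clamp loader, which opens PCNA around DNA, fell in A2780 with siVRK1 in all 5 subunits, by 0.43 to 0.66, where 27% of all genes fell. In ES2 RFC4 rose by 0.27 ± 0.07, RFC5 fell by 0.33 ± 0.05, and RFC1, RFC2 and RFC3 were not called. With luteolin RFC2, RFC3 and RFC5 fell in A2780 (-0.95, -0.91 and -0.75 relative to the median gene). In ES2 RFC1 rose by 0.31 ± 0.06 and RFC5 fell by 0.18 ± 0.05. The rise of RFC4 there, 0.19 ± 0.07, was lost without DMSO library 1 (limma adjusted p = 0.185), DMSO library 3 (0.076), luteolin library 1 (0.129) or luteolin library 3 (0.177).

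RPA, which coats the unwound strand, also divided in ES2. All 3 subunits fell with siVRK1 in A2780, where 27% of all genes fell. In ES2 RPA1, the largest subunit, fell from 73.5, 70.1 and 87.7 to 54.1, 55.3 and 56.8 TPM (-0.46 ± 0.09, limma adjusted p = 0.00106), whereas RPA3, the smallest, rose from 167, 154 and 146 to 170.4, 186 and 200.02 TPM (0.25 ± 0.06, limma adjusted p = 0.00581). The groups of each gene were separate. RPA2 fell by 0.14 ± 0.06 with an adjusted p of 0.0492, which rose above 0.05 when any of the 6 libraries compared was left out (highest 0.151). With luteolin RPA2 and RPA3 fell in A2780 (-0.86 and -0.92 relative to the median gene), RPA1 fell only under scaling there, and none of the 3 was called in ES2.

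LIG1, the ligase that joins Okazaki fragments, was low in ES2 and rose there with siVRK1 from 10.7, 9.96 and 11.04 to 18.7, 17.4 and 19.7 TPM (0.76 ± 0.10, limma adjusted p = 5.38e-05). In A2780 it fell from 60.7, 54.3 and 51.7 to 42.9, 37.4 and 33.6 TPM (-0.54 ± 0.09, limma adjusted p = 0.000307). Neither pair overlapped, though in ES2 not every siVRK1 library lay above every DMSO library, whose mean is given below with the control cells. With luteolin LIG1 was not called in either line as deposited, though it fell in A2780 under scaling. FEN1, which trims the flaps of these fragments, fell with siVRK1 in A2780 (-0.56 ± 0.06) and was flat in ES2 (0.04 ± 0.05); luteolin lowered it in both (-0.97 relative to the median gene and -0.39 ± 0.05).

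CAF-1 deposits new histones behind the fork. Its subunit CHAF1B read 18.4, 18.2 and 20.8 TPM with DMSO and 9.28, 10.4 and 10.01 TPM with luteolin in A2780, a change of -1.10 relative to the median gene (limma adjusted p = 1.75e-06). In ES2 the groups overlapped at 14.4, 12.3 and 12.1 and 12.5, 12.4 and 14.5 TPM. With siVRK1 both CHAF1A and CHAF1B fell in A2780 (-0.34 ± 0.05 and -0.35 ± 0.09) and rose in ES2 (0.50 ± 0.06 and 0.51 ± 0.09).

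The siVRK1 effect differed between the lines for most of the list. The test of the difference itself, ES2 minus A2780 over all 24 libraries, was higher for 35 members and lower for 0, where 20.7% and 13.2% of 14328 genes were called. Scaling left 33 and 0, and moved the share of higher among all called genes from 61.0% to 44.7%. The largest differences were MCM6 (1.38 ± 0.07), LIG1 (1.30 ± 0.14) and POLE2 (1.28 ± 0.22), with limma adjusted p = 1.07e-11, 4.38e-07 and 0.000152. Without each library in turn the count of higher ranged from 34 to 38. The 8 members without a call were ORC2, ORC3, ORC4, ORC6, GINS1, POLE, RFC5 and RPA1. Gene by gene, 21 members fell in A2780 and rose in ES2, and 7 fell in both: ORC3, ORC4, GINS1, POLA2, RFC5, RPA1 and RPA2. Taken singly, 27% of all genes fell in A2780, and 26.8% rose and 28% fell in ES2. Joint calls over all genes were not counted, so how unusual these joint counts are is not known.

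The 2 control groups of each line were also set side by side. The siCtrl mean was below the DMSO mean for 31 of 43 members in ES2 and for 8 in A2780. It was also below for all 22 members that rose with siVRK1 in ES2. Those 22 were called against the same siCtrl libraries, so a low siCtrl mean favoured both the call and this count. Of those 22, 16 had a siVRK1 mean above the DMSO mean, and 7 had every siVRK1 library above every DMSO library: MCM2, MCM3, MCM6, GINS3, POLA1, RFC4 and RPA3. MCM5, MCM10, POLD2, POLD3, CHAF1A and CHAF1B had a siVRK1 mean no higher than the DMSO mean. The same counts were not made over all genes, so they cannot show whether low siCtrl values are particular to the members. The 2 controls differ in kind, and the difference between them was not tested. The siVRK1 levels of the 40 members that fell in A2780 were not counted against DMSO member by member. Over all 43 members the summed mean in A2780 was 3481 TPM with siCtrl, 2511 TPM with siVRK1 and 3090 TPM with DMSO. Over the ORC genes alone it was 256, 210 and 211 TPM, so siVRK1 stood near DMSO for these.

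The luteolin effect also differed between the lines, mostly through lower values in A2780. ES2 minus A2780 was higher for 27 members and lower for 2, where 14.7% and 35.8% of all genes were called; scaling gave 35 and 2, and moved the share of higher among all called genes from 29.1% to 50.9%. CHAF1B (0.90 ± 0.12, and 1.10 after taking off the median of -0.20), CDT1 (0.86 and 1.05) and PRIM1 (0.84 and 1.03) had the largest positive differences (limma adjusted p = 5.60e-06, 2.35e-06 and 0.000201). PCNA (-0.67 and -0.47) and ORC4 (-0.55 and -0.36) were the 2 negative ones (limma adjusted p = 1.91e-07 and 0.00139). CDC6 fell in both lines, with a difference of -0.02 ± 0.13 that was not called. Without each library in turn the count of higher ranged from 22 to 28, the calls of GMNN, MCM10, ORC6, POLD3 and RFC1 being among those lost. In all, 17 members fell with luteolin in both lines, CDT1 and POLD2 fell in A2780 and rose in ES2, and POLE rose in both as deposited (in ES2 alone under scaling). Taken singly, 19.9% of all genes fell in A2780 and 25.8% in ES2, and joint calls over all genes were not counted here either.

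**Figure D3:**
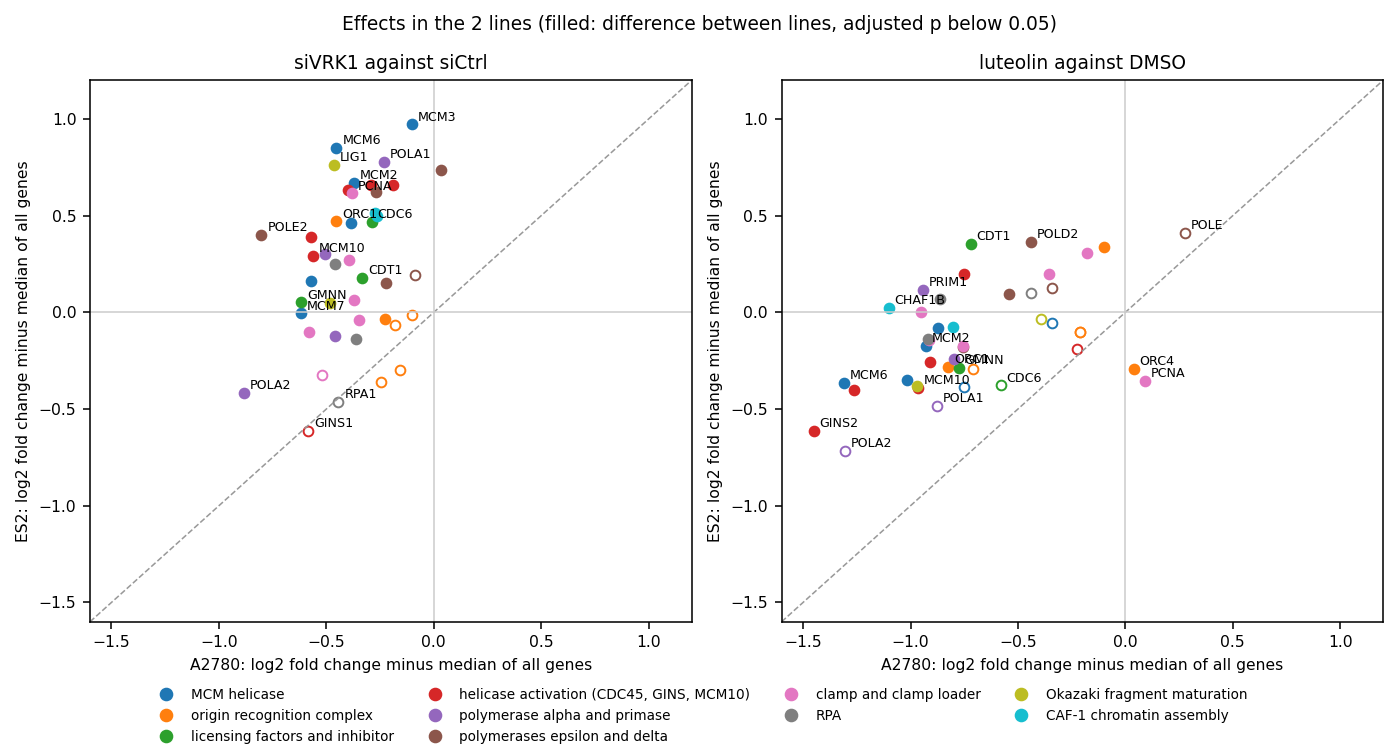
Log2 fold change minus the median of all genes in A2780 (horizontal axis) and ES2 (vertical axis) for siVRK1 (left) and luteolin (right), one point a member, coloured by role; filled points passed the adjusted p of 0.05 for the difference between lines in the unscaled fit, and the dashed line marks equal effects. With siVRK1 35 points are filled, all above the dashed line; with luteolin 27 filled points lie above it, and PCNA and ORC4 below.

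Luteolin and siVRK1 were also set against each other within a line, each effect taken against its own control. In A2780 the luteolin effect was higher than the siVRK1 effect for 9 members and lower for 9, where 43.3% and 14.3% of all genes were called and the median of all genes was 0.30. Scaling left 2 higher (GINS4 and PCNA) and 27 lower, with the share of higher among all called genes moving from 75.2% to 45.7%. Relative to that median, GINS2 stood at -1.26, CDC45 at -0.98 and MCM6 at -0.86, and PCNA at 0.47. Before the median was taken off they stood at -0.97, -0.68, -0.56 and 0.76 (limma adjusted p = 6.33e-06, 0.000191, 0.000120 and 8.60e-07). POLE stood at 0.36 above that median as deposited (limma adjusted p = 0.00669), and at 0.31 under scaling, where it was not called (limma adjusted p = 0.102). The calls of MCM2, POLA1 and RFC2 were each lost with any of several single libraries left out (highest adjusted p 0.088, 0.076 and 0.092), and that of LIG1 without siCtrl library 1 (0.0539).

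In ES2 the same contrast was higher for 6 members and lower for 23, where 25.8% and 26% of all genes were called. GINS2 (-1.27 ± 0.08), POLA1 (-1.26 ± 0.14) and MCM6 (-1.22 ± 0.06) were the lowest (limma adjusted p = 8.09e-08, 1.14e-05 and 1.50e-08), and all 3 rose with siVRK1 and fell with luteolin. RPA1 (0.56 ± 0.13), ORC6 (0.40 ± 0.07) and GINS1 (0.36 ± 0.10) were the highest (limma adjusted p = 0.00356, 0.000386 and 0.00859).

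Control cells of the lines differed without luteolin or siVRK1, though all of them had DMSO or a control siRNA and none was untreated. With the siCtrl and DMSO libraries of each line as 1 control set, 5 members were higher and 32 lower in ES2, where 34.3% and 49.4% of all genes were called and their median was -0.17; scaling gave 9 and 29. LIG1 was the most unequal, at 55.6 ± 4.62 and 54.4 ± 2.69 TPM with siCtrl and DMSO in A2780 and 10.6 ± 0.556 and 17.3 ± 2.08 TPM in ES2 (-1.78 relative to the median gene, limma adjusted p = 2.06e-16). POLD1 (-1.21) and MCM6 (-1.10) came next (limma adjusted p = 9.05e-14 and 1.51e-18). RPA3 (0.96), POLA2 (0.69) and PRIM2 (0.62) were higher in ES2 (limma adjusted p = 4.94e-12, 4.90e-06 and 9.82e-08). PRIM2 read 29.7, 29.4 and 30.6 TPM in A2780 siCtrl and 38.7, 40.2 and 37.6 TPM in ES2 siCtrl libraries, with every ES2 library higher.

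Part of the change with luteolin in A2780 lay in transcripts annotated as retaining an intron, which are not expected to make the full protein. They held 3.91% to 5.002% of the members' TPM over DMSO libraries and 9.88% to 10.7% over luteolin libraries (means 4.39% and 10.2%), where the share over all genes was 3.41% and 5.27%. In ES2 the means were 6.004% and 6.67%, where the share over all genes was 4.35% and 4.56%. With siVRK1 they were 7.94% against 7.45% in A2780 and 5.25% against 6.04% in ES2. The DMSO mean in A2780, 4.39%, was the lowest of the 8 groups, while the siCtrl mean of that line was 7.45%. Of the 31 members with such transcripts, 27 had a higher share with luteolin in A2780, by a median of 3.74 points, and 21 had in ES2. This was not counted over all genes, so it cannot show whether such rises are particular to the members.

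For POLE the rise in A2780 lay in these transcripts. Its coding transcripts read 18.8, 19.0 and 21.1 TPM with DMSO and 21.9, 20.3 and 19.1 TPM with luteolin, while its retained-intron transcripts went from 8.39, 9.70 and 9.82 to 24.4, 30.1 and 16.5 TPM. The siCtrl libraries of that line held 28.95, 20.7 and 18.3 TPM of the latter, within the range of the luteolin libraries. On coding transcripts alone POLE was not called there (0.05, limma adjusted p = 0.582), whereas in ES2 its coding transcripts went from 12.4, 12.5 and 13.1 to 16.2, 15.5 and 16.9 TPM. In A2780 MCM4 showed the same shift with a falling coding part: 128 ± 8.88 against 80.0 ± 3.08 TPM of coding transcripts and 12.8 ± 8.01 against 39.8 ± 10.1 TPM of retained-intron transcripts. Its mean retained-intron share was 8.34% with DMSO and 29.3% with luteolin, but also 24.5% with siCtrl and 28.3% with siVRK1. PCNA has only coding transcripts in the annotation used.

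ORC3 was the reverse case in ES2. A single retained-intron transcript, ORC3-203, went from 22.0, 18.5 and 19.3 TPM with siCtrl to 5.08, 9.88 and 7.90 TPM with siVRK1, and from 13.1, 15.6 and 18.2 TPM with DMSO to 5.58, 6.63 and 3.52 TPM with luteolin. In A2780 it went from 12.9 ± 1.58 to 5.75 ± 2.07 TPM with luteolin. Coding ORC3 transcripts summed to 27.3 ± 0.851 and 28.7 ± 1.299 TPM with siCtrl and siVRK1, and to 20.8 ± 0.731 and 24.3 ± 2.15 TPM with DMSO and luteolin. LIG1-205, a coding transcript of LIG1, stood at 4.07 to 14.3 TPM over the A2780 libraries and was listed at 0 in every ES2 library.

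**Figure D4:**
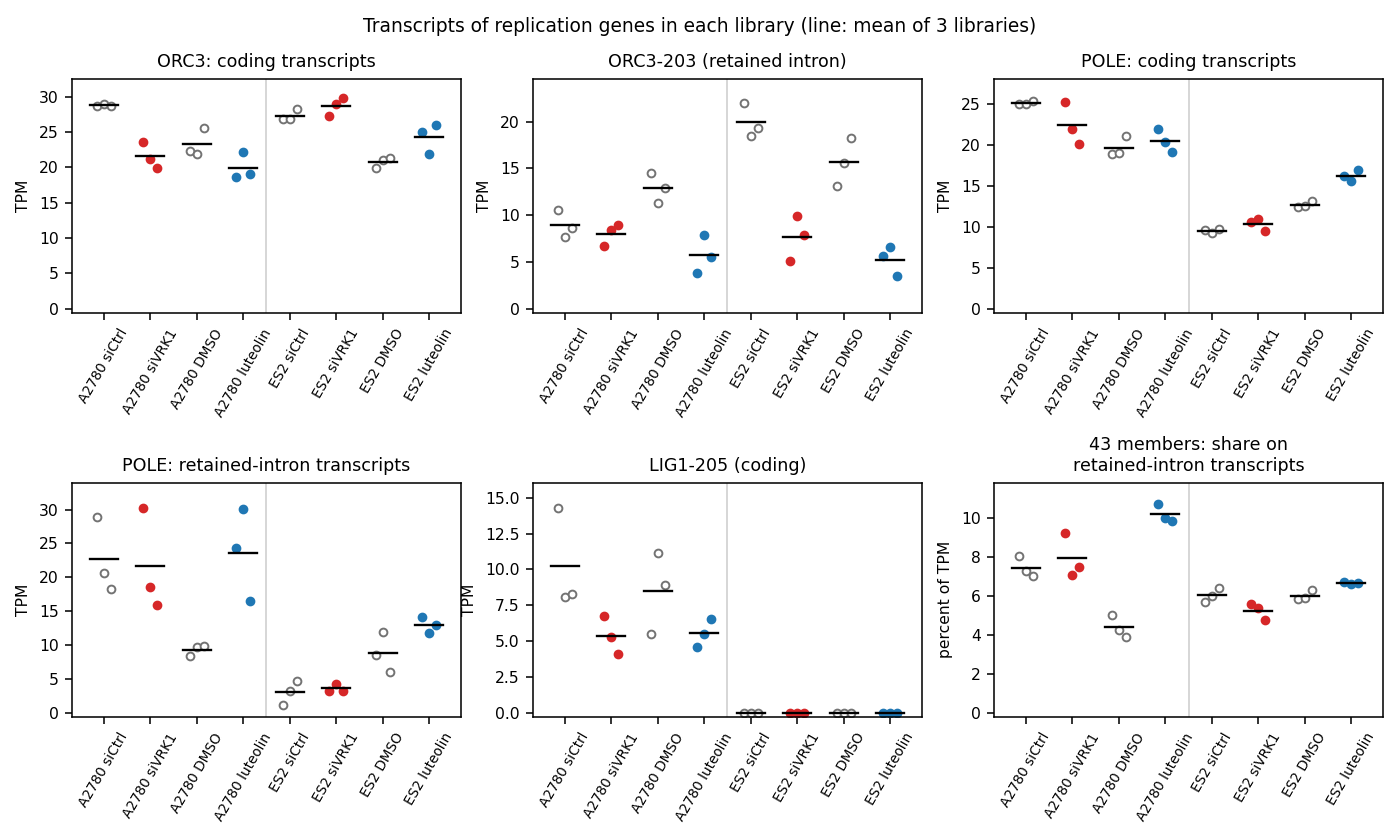
TPM (vertical axis) of coding and retained-intron transcripts of ORC3 and POLE and of LIG1-205, and the percent of the 43 members' TPM on retained-intron transcripts, in each of the 24 libraries; open points are siCtrl or DMSO, filled points siVRK1 or luteolin, lines the means of 3. The retained-intron share lay between 9.88% and 10.7% with luteolin in A2780, above every DMSO library of that line.

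Other genes of the pathway were taken from lists set by function. Of 28 further origin and fork genes, 1 rose and 20 fell with siVRK1 in A2780 (2 and 17 under scaling), where 13.8% of all genes rose and 27% fell. In ES2 11 rose and 5 fell (26.8% and 28% of all genes). With luteolin 3 rose and 15 fell in A2780 (1 and 23 under scaling), where 45.6% and 19.9% of all genes were called. In ES2 4 rose and 8 fell. The last are 14.3% and 28.6% of the list, near the 22.6% and 25.8% of all genes called there. RBBP4, the histone-binding subunit that completes CAF-1, rose with siVRK1 in ES2 from 93.6 to 188 TPM on average (0.998, limma adjusted p = 2.65e-09). POLD4, the smallest subunit of polymerase delta, rose in A2780 from 14.4 to 19.2 TPM and fell in ES2 from 49.3 to 28.98 TPM with siVRK1 (0.40 and -0.75, limma adjusted p = 0.00889 and 4.81e-06). RNASEH2A, of the enzyme that removes RNA from DNA, fell with luteolin in A2780 from 119 to 54.0 TPM and rose in ES2 from 91.2 to 121 TPM. The difference between the lines was 1.53 (limma adjusted p = 7.97e-12).

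Among 13 genes of the E2F and RB families, 0 rose and 6 fell with siVRK1 in A2780, where 13.8% and 27% of all genes were called, and 7 rose and 4 fell in ES2 (26.8% and 28% of all genes). With luteolin 5 rose and 4 fell in A2780 as deposited, where 45.6% and 19.9% of all genes were called, but 2 rose and 8 fell under scaling. In ES2 2 rose and 3 fell (22.6% and 25.8% of all genes). E2F1, a transcriptional activator of the family, read 13.4, 14.2 and 14.6 TPM with siCtrl and 36.4, 34.7 and 37.7 TPM with siVRK1 in ES2, with no overlap. The rise was 1.31 ± 0.07 (limma adjusted p = 1.21e-08), although the DMSO mean of that line was 33.9 TPM, beside a siVRK1 mean of 36.3 TPM. In A2780 the change was -0.15 (limma adjusted p = 0.0923). E2F7, a repressor of the family, fell with siVRK1 in both lines, from 19.5 to 8.17 TPM in A2780 and from 55.7 to 22.8 TPM in ES2 (-1.17 and -1.25). It rose with luteolin in both, from 8.998 to 22.9 TPM and from 21.0 to 35.8 TPM (1.04 relative to the median gene and 0.74, limma adjusted p = 3.29e-07 and 3.51e-06).

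The calls were also counted for members with and without an E2F word in a promoter window, with no test. With siVRK1 in A2780 26 of 27 with a word and 9 of 10 without fell, and in ES2 14 of 27 and 4 of 10 rose. With luteolin 21 of 27 and 5 of 10 fell in A2780, and 13 of 27 and 5 of 10 in ES2. The difference in siVRK1 effect between the lines was higher for 22 of 27 and 7 of 10. With siVRK1 27% of all genes fell in A2780 and 26.8% rose in ES2, and the difference was higher for 20.7%. With luteolin 19.9% and 25.8% of all genes fell in A2780 and ES2. Genes outside the list were not split by the word.

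Of 7 genes that take part in the destruction of CDT1 protein, 6 fell with luteolin in ES2, where 25.8% of all genes fell. CDT1 RNA rose there, CDT1 protein was not measured, and a link was not tested. SKP2, the substrate receptor of one of the ligases, went from 35.8 to 17.3 TPM on average there (-1.01, limma adjusted p = 3.43e-08), and fell in A2780 from 49.1 to 31.9 TPM (-0.82 relative to the median gene). DTL, the receptor that acts on CDT1 bound to chromatin-loaded PCNA, fell with siVRK1 in both lines, from 62.7 to 31.4 TPM in A2780 and from 38.1 to 25.6 TPM in ES2 (-0.98 and -0.55). Of 12 genes of mitosis, 12 fell with siVRK1 in A2780 (9 under scaling) and with luteolin in both lines. Of all genes 27% fell with siVRK1 in A2780, and 19.9% and 25.8% with luteolin in A2780 and ES2. With siVRK1 in ES2 5 of the mitosis genes rose and 2 fell (26.8% and 28% of all genes), with a median of -0.04, where the members' median was 0.25. Their summed mean level went from 1433 to 1003 TPM with siVRK1 and from 1417 to 706 TPM with luteolin in A2780, and from 1474 to 1450 TPM and from 1807 to 1140 TPM in ES2; its part in the members' changes was not tested.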

How the data were processed

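RNA was sequenced from 24 libraries, 3 in each of 8 groups, and groups were read from the sample titles. The authors deposited 1 table of TPM per transcript; FastQC, kallisto and the build hg19 are named in the submitters' processing notes, and neither the transcript set nor versions were found in the labels. TPM keeps no total counts, so the depth of each library is unknown. After 1958 repeated lines of 193845 were dropped, TPM was summed by symbol; transcripts with no symbol (9542) or more than 1 (19) were left out (0.514% to 1.03% of TPM). Transcript types came from GENCODE 29 (168749 matched).

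limma 3.58.1 in R 4.3.3 with a variance trend was fitted on log2(TPM + 1) to the 12 libraries of a line, or to all 24 for differences between lines, for genes at 1 TPM or more in at least 3 libraries, with p-values adjusted by Benjamini-Hochberg over all genes. On simulated data it recovered 80% to 87% of 1.5-fold and 97% to 99% of 2-fold changes within lines, and 65% to 69% and 94% to 96% for differences between lines. The changes, 100 genes at each fold, were placed only on genes above a higher level than the filter, with normal noise and no other change. Recovery where far more genes change, as in the real data, was not measured. In ES2 the columns of 2 siVRK1 libraries share a name, so these are called a and b. Alternatives were the pseudocount, the filter, median-of-ratios scaling, quantile normalization, coding transcripts only, the 2 groups alone, a replicate block, and each library left out. Library values are given for 8 fixed members and for the 3 largest rises and falls of a comparison. Outside this rule they are also given for POLD3, E2F1 and transcripts of POLE and ORC3. Other members were named by role after their values were seen. One planned leukocyte marker is not reported here. The members and lists were chosen with earlier results of these data known.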

Additional observations from a re-analysis of the deposited data

Results flagged for a closer look

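The siVRK1 effect differed between the lines, by the interaction test of limma over 24 libraries, for 35 of the 43 members, all higher in ES2. Among them were MCM6 (1.38), LIG1 (1.30) and POLE2 (1.28). The luteolin effect differed for 27 members that were higher in ES2 and 2 that were lower. The largest of these differences were CHAF1B (0.90), CDT1 (0.86) and PRIM1 (0.84) on the higher side, and PCNA (-0.67) and ORC4 (-0.55) on the lower side. All values are differences of log2 fold changes, ES2 minus A2780, as deposited. What lies behind them was not tested. Groups of 3 libraries are too small to look for single outlying libraries.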

How the results depend on the processing

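Over 277 results for single members and 5081 values under alternatives, 4861 kept their direction and call, 208 lost the call, 5 gained it and 7 turned direction. The turned values were small except for ORC3. With median-of-ratios scaling they were ORC5 (-0.0291) and RFC4 (-0.0133) for luteolin minus siVRK1 in A2780 and GINS1 (0.00302) for the control lines. With coding transcripts only, ORC3 turned to 0.0689 for siVRK1 in ES2, 0.211 for luteolin in ES2 and -0.113 for the control lines. Leaving out single libraries, the difference of GMNN for siVRK1 in ES2 ranged from -0.00856 (without siVRK1 library 3) to 0.107; it was called in neither case. The cause of these turns was not tested, beyond the transcript values given for ORC3.

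With median-of-ratios scaling the members higher with luteolin in A2780 numbered 0, those higher and lower for luteolin minus siVRK1 in A2780 numbered 2 and 27, and those higher in control ES2 numbered 9. With coding transcripts only they were 1 higher with luteolin in A2780, 3 higher for luteolin minus siVRK1 in A2780, and 1 lower for the luteolin difference between lines. Quantile normalization gave 22 lower for luteolin minus siVRK1 in A2780.

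Leaving out each library in turn gave, for higher and lower members, 0 and 36 to 41 with siVRK1 in A2780, 19 to 23 and 5 to 6 in ES2, 2 to 3 and 29 to 32 with luteolin in A2780, and 5 to 9 and 18 to 21 in ES2. The difference between lines ranged from 34 to 38 and stayed at 0 for siVRK1, and from 22 to 28 and at 2 for luteolin. Luteolin minus siVRK1 ranged from 8 to 12 and 6 to 10 in A2780, and from 4 to 7 and 21 to 24 in ES2, and the control lines from 4 to 6 and 32 to 33.

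Libraries with the same replicate number did not deviate together (r of -0.0532 to 0.0414), so the numbers were not taken to pair them. A replicate block gave 0 and 39 for siVRK1 and 3 and 30 for luteolin in A2780, 23 and 7 and 5 and 20 in ES2, 36 and 0 and 26 and 2 for the differences between lines, 10 and 7 and 6 and 23 for luteolin minus siVRK1, and 4 and 33 for the control lines. With libraries a and b in the other order, an alternative chosen after seeing the data, it gave 24 and 7 for siVRK1 in ES2. TPM holds no counts, so the precision of each value rests on 3 libraries a group.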
